A study of Mus musculus with 16 samples.

Results

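The 39 Hox genes of the mouse were the rows of the count matrix whose symbols are Hox, a cluster letter from a to d and a paralog number, out of 29453 rows in all. They encode homeodomain transcription factors that give cells their address along the head-to-tail axis. The genes lie in 4 clusters, and members of different clusters that share a number form a paralog group, with 13 groups in all. In the embryo the genes of low number are switched on first and reach farthest forward, and those of high number follow later and nearer the tail, a rule known as colinearity. The low numbers pattern the segments of the hindbrain, the middle numbers the neck and chest, and the high numbers the loins, the tail and the outer parts of the limbs.

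Their levels were measured in mouse chimeras, in which embryonic stem cells (ESCs) of the CD1 strain that lacked Stat3 and carried a red tdTomato label had been placed into wild-type (WT) blastocysts of CD1. The embryos were collected at E9.5 and at the earlier stages E8.5 and E7.5, named by days of development, and sorted into red cells (null) and cells without label from the host (WT). Each sorted fraction went through droplet-based 3′ RNA sequencing of single cells, where a unique molecular identifier (UMI) stands for 1 captured transcript. The comparison of null with WT asks whether cells without STAT3, a signal-driven transcription factor, keep pace with host cells in the same embryos. The WT and the null group of E9.5 had 4 libraries each and all groups of the earlier stages 2 each, called A to D within a group only as names. Both fractions came from the same embryos, no chimeras made with WT ESCs were analysed here, and the labelled null ESCs came from manually picked colonies, so genotype cannot be told apart from ESC origin or from the history of that line. By the labels a pool held about 10 embryos at E7.5, about 4 at E8.5 and 1 at E9.5, the study sorted E7.5 embryos by size into 2 classes before pooling, and its account gives fewer E9.5 embryos than the labels give pools. The p-values therefore measure the spread between these libraries, which at E9.5 may be partly technical.

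The 37841 cells used were spread over the 16 libraries at 360 to 4327 cells and 20682659 to 138613245 UMIs each, and a cell held a median of 18205 to 57791.5 UMIs by library. The Hox genes took 4662 UMIs in the smallest library and 115626 in the largest. Stat3, the deleted gene, was at 6.14 to 9.31 CPM (UMI counts scaled so that every library has the same total) in WT and 1.16 to 2.53 CPM in null libraries, without overlap. Before cells of the WT gate with a tdTomato UMI were removed, 0.104 to 8.47% of WT-gate cells and 72.3 to 98.3% of null cells had one. The fractions differed in makeup: cells labelled ExE ectoderm (extraembryonic ectoderm, which injected ESCs rarely form) were 9.37 and 15.8% of E7.5 WT libraries against 0 and 0.0921% of null ones, and Erythroid cells were 1.63 to 5.32% of E9.5 WT libraries against 0.083 to 0.388% of null ones. Libraries WT C and WT D of E9.5 shared 292 cell barcodes, of which 10 had the same cell type in both, and any other pair shared at most 8. Values below are UMIs of 3′ tags, which carry no length factor, and levels are CPM of a library or of 1 cell type within it.

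Each cluster is one compact block in the GRCm38 genome, with coordinates from the GENCODE M21 annotation. The 11 Hoxa genes lie on chromosome 6 on the minus strand, the 10 Hoxb genes at chr11:96194316-96368256, the 9 Hoxc genes at chr15:102921103-103036852 and the 9 Hoxd genes at chr2:74668310-74765142, these 3 on the plus strand. Hoxb is the longest of them at 174 kb and Hoxd the shortest at 96.8 kb. Exons of Hoxc5 overlap those of Hoxc10 on the same strand and exons of Hoxd3 overlap those of Hoxd4. A read in such an overlap cannot be given to 1 gene by its position, which may affect the counts of these 4 genes. Of the 39 genes, 22 matched a promoter entry of RefSeq (GRCm38.p6), of 250 bases before and 50 after a start. The letters TTCNNNGAA, the palindrome that STAT dimers bind, occurred in 1 of the 22, or 4.55%, against 9.55% of 27025 promoters of the same length. AGGTCA, a core site of retinoid receptors, occurred in 7 (31.8% against 18.1%), and TTTATG, the site type of the Cdx factors that act on trunk Hox genes, in 5 (22.7% against 13.6%), counting both strands. The 250 bases before the start are shown for the 1 gene with the STAT palindrome, Hoxd4 (chr2:74721728-74721977), and for 2 with a Cdx-type match whose levels are described below, Hoxb8 (chr11:96281655-96281904) and Hoxd11 (chr2:74679308-74679557, the first of its 2 starts). All are on the plus strand, and capitals mark the matches to the 3 motifs.
Hoxd4: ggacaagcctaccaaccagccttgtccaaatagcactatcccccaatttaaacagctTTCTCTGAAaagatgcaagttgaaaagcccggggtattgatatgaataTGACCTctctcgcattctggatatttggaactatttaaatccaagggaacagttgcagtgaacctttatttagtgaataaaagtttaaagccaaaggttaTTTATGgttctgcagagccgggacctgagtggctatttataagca
Hoxb8: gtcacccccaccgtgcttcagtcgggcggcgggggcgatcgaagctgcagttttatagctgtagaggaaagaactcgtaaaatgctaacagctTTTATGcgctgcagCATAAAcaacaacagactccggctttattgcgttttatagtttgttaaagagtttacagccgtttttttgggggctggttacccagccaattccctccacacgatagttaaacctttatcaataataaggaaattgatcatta
Hoxd11: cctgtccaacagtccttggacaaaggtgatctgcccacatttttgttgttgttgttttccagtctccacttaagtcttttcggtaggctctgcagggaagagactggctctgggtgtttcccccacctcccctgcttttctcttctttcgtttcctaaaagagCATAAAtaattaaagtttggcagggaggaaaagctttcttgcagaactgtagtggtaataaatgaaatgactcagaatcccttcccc
A match says only that these letters are present in the window.

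In whole WT libraries the Hox genes together grew from stage to stage, and their makeup moved from the low numbers to the middle and high ones. Their summed level was 284 and 130 CPM in the WT libraries of E7.5. It was 462 and 452 CPM in those of E8.5, and 1049, 744, 825 and 768 CPM at E9.5. Every E8.5 library lay above both E7.5 libraries and below all E9.5 libraries. Paralog groups 1 and 2 made up 57.3% ± 6.95 (SD, n = 2) of Hox UMIs in WT libraries at E7.5, 19.3% ± 1.10 (n = 2) at E8.5 and at most 15.8% in the 4 libraries of E9.5. Groups 3 to 5 went from 16.1 to 25.8 and 30.9% on average. Groups 6 to 9 went from 22.1 to 50.4 and 43.8%, and groups 10 to 13 from 4.61 to 4.43 and 11.4%. By cluster, Hoxb held 65.0% of Hox UMIs at E7.5 and 42.2% at E9.5, whereas Hoxc held 4.68 and 21.7%. At E7.5 Hoxb1, a hindbrain segment gene and one of the first to be switched on, was the most abundant at 66.8 and 36.2 CPM. At E9.5 Hoxb4, a gene of the posterior hindbrain and neck, and Hoxb9, a gene of the chest region, were at 90.8, 76.2, 77.1 and 58.6 CPM and at 91.8, 59.4, 61.9 and 51.9 CPM. The null libraries had summed levels of 303 and 225 CPM in the first stage, 420 and 385 CPM in the next, and 834, 815, 747 and 758 CPM in the last.

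**Figure D1:**
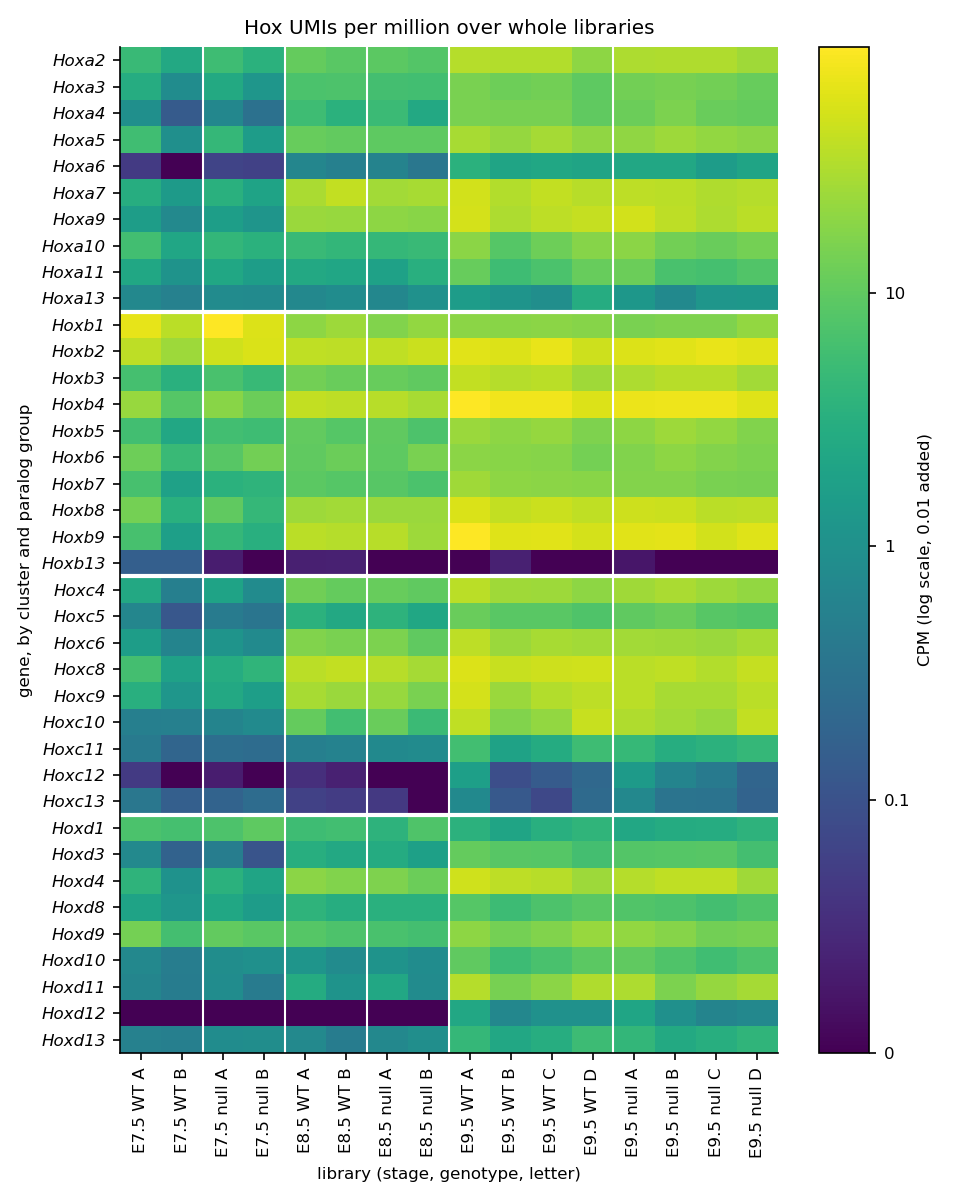
Level of Hox genes in each of the 16 whole libraries, as log10(CPM + 0.01) in colour, with genes in rows by cluster and paralog number and libraries in columns by stage and genotype. Hoxb1 and Hoxb2 stand out at E7.5, the middle numbers fill in at E8.5, and Hoxd10 to Hoxd13 are brighter at E9.5 in both genotypes.

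Between E7.5 and E8.5 more Hox genes rose than fell. In the quasi-likelihood test of edgeR over whole libraries, with a call at a Benjamini-Hochberg adjusted p under 0.05 and a log2 fold change above 1 in size, 25 of 39 Hox genes were called in WT, 23 higher and 2 lower at E8.5. Of all 15569 genes tested, 17.7% were called, 9.17% higher and 8.55% lower. The median log2 fold change of the Hox genes was 1.53, against 0.01 for all genes. A bulk sum cannot tell apart more cells of a type from more RNA per cell. Hoxa9, a gene of the lower chest, was at 1.62 and 0.737 CPM at E7.5 and 23.4 and 23.1 CPM at E8.5, a log2 fold change of 4.61 (SE 0.36, adjusted p = 2.3e-06). Hoxa7, which acts in the chest region, went from 2.98 and 1.46 CPM to 29.4 and 40.9 CPM (log2 fold change 4.25, SE 0.30, adjusted p = 8.81e-07). In neither gene did the stages overlap. Hoxc6, Hoxc8, Hoxc9 and Hoxc10 rose by log2 fold changes of 3.56 to 4.16, Hoxb3, Hoxb4, Hoxb5, Hoxb7 and Hoxb8 by 1.35 to 1.83, and Hoxd3, Hoxd4, Hoxd8 and Hoxd11 by 1.30 to 3.21. Hoxa6 had 1 UMI at E7.5 and 93 at E8.5, a ratio of 48.0 with a 95% counting interval of 8.41 to 1917. The 2 genes that fell were Hoxb1, from 66.8 and 36.2 CPM to 19.7 and 24.6 CPM (log2 fold change -1.04, SE 0.26, adjusted p = 0.00686), and Hoxb13, the most 5′ gene of its cluster, from 12 UMIs to 2 (ratio 11.6, 2.59 to 107). Without Erythroid cells the difference in Hoxb1 was -0.81 (edgeR adjusted p = 0.0247), under the fold threshold. Hoxd9, Hoxd10, Hoxa10, Hoxa11, Hoxa13 and Hoxd13 were not called in this step.

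Between E8.5 and E9.5 the high-numbered end followed, and genes of lower number rose as well. In WT, 16 Hox genes were called, 14 higher and 2 lower, with 10.1% of all genes called, 6.81% higher and 3.25% lower. The median over the Hox genes was 0.89, against 0.06 over all, with 34 of the 39 log2 fold changes above 0 and 5 below. Hoxa2 was at 10.9 and 9.12 CPM at E8.5 and at 34.3, 32.6, 32.2 and 19.9 CPM at E9.5. Hoxb3 was at 13.2 and 11.6 CPM and then at 40, 34.2, 36.4 and 25.7 CPM. Hoxd11, a gene of the sacral region and the forearm, was at 2.76 and 1.1 CPM at E8.5 and at 33.4, 14.2, 19.1 and 31.6 CPM at E9.5 (log2 fold change 3.40, SE 0.53, adjusted p = 0.000407). Hoxd13, a gene of the digits and the tail end, was at 0.724 and 0.455 CPM and then at 4.34, 2.41, 2.96 and 5.28 CPM (log2 fold change 2.40, SE 0.34, adjusted p = 0.00013). All 4 E9.5 libraries lay above both E8.5 libraries for these 2 genes, with libraries A and D the highest. Hoxd10 (2.74), Hoxc11 (2.63), Hoxa11 (1.64), Hoxc10 (1.57) and Hoxa10 (1.37) rose as well, by the log2 fold changes given. Hoxd12 had 0 UMIs in the WT libraries of E8.5 and 478 at E9.5, at least 68.8-fold higher by a floor of 3 counts over the group. At the other end Hoxd1 fell by 1.10 on the log2 scale (adjusted p = 0.00503). Without library B of the E8.5 WT group, 9 Hox genes were called in this step.

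The null libraries were tested between stages on their own, and the difference between the genotypes was tested for the second step, by the interaction described below, but not for the first. From E7.5 to E8.5, 21 Hox genes were called, 20 higher and 1 lower, with 15.8% of all genes called, 10.1% higher and 5.69% lower. From E8.5 to E9.5, 20 were called, 18 higher and 2 lower, with 10.4% called, 6.52% higher and 3.92% lower, and 9 without library B of the E8.5 null group. Medians over the Hox genes were 1.14 and 0.99. Hoxb1 fell in null libraries by 1.90 on the log2 scale between E7.5 and E8.5 (SE 0.27, adjusted p = 0.000187), and Hoxd1 fell by 1.16 in the next step. Hoxd12 again went from 0 UMIs to 480, at least 62.9-fold higher.

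**Figure D2:**
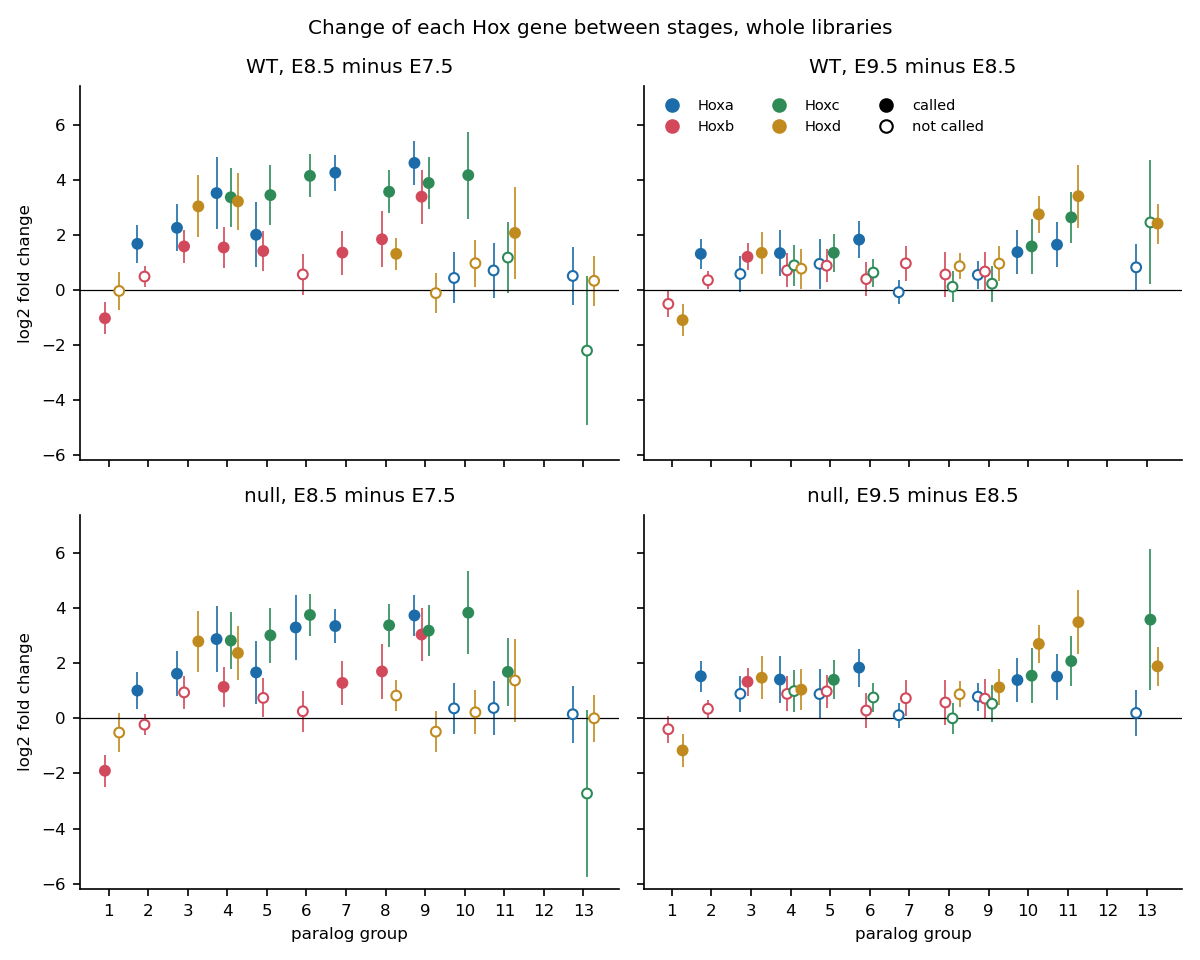
log2 fold change of Hox genes between stages over whole libraries, against its paralog group, with 95% intervals, for WT (upper row) and null (lower row). Colours mark the clusters, filled points are called, and genes with 3 or fewer UMIs at either stage are not drawn. Most genes of groups 3 to 9 sit above 0 in the first step. Most genes sit above 0 in the second step too, Hoxd10, Hoxd11 and Hoxd13 among them, where Hoxd1 sits below.

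Null and WT libraries of the same stage gave no Hox call. The count was 0 at each of the 3 stages with edgeR and with DESeq2, where edgeR called 2.61% of all genes at E7.5, 0.103% at E8.5 and 0.751% at E9.5. At an unadjusted p under 0.05 there were 3, 0 and 0 Hox genes, with 18.2, 5.27 and 9.09% of all genes below that p. The 95% interval of the difference lay within a factor of 2 either way (1 on the log2 scale) for 4 of the 39 genes at E7.5, 17 at E8.5 and 34 at E9.5, and reached past it for the others. The difference between the E9.5 and E8.5 genotype effects was called for no Hox gene and for 0.0257% of all genes, and no Hox gene reached an unadjusted p under 0.05 there, where 2.51% of genes did.

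At E7.5 the values of null libraries leaned high, by a median of 0.36 over Hox genes and 0.01 over all genes. Hoxb2, a hindbrain gene, was at 37.9 and 24.5 CPM in WT and at 47.9 and 56.6 CPM in null libraries, without overlap. Its log2 fold change of 0.80 (SE 0.18, interval 0.40 to 1.19, edgeR adjusted p = 0.0231) was under the fold threshold, and without the ExE ectoderm, ExE endoderm and Visceral endoderm cells (left out in a setting added after seeing the data) it was 0.50 with an adjusted p of 0.598. Without library A of the WT group it was 1.11 with an adjusted p of 0.00779, the 1 call any left-out library gave, and without library B it was 0.53 with an adjusted p of 0.14. Hoxb1 was at 66.8 and 36.2 CPM in WT and 93.7 and 57.1 CPM in null libraries, which overlapped (log2 fold change 0.61, SE 0.26, adjusted p = 0.228), and 0.31 without those 3 labels. Leaving out 1 library moved it from 0.23 (null A) or 0.25 (WT B) to 0.90 (null B) or 1.09 (WT A). Hoxd10 differed by 0.72 (adjusted p = 0.412), and by 0.45 without WT library B. Hoxb13 had 12 UMIs in WT and 1 in null libraries, a WT to null ratio of 16.4 with a counting interval of 2.42 to 699 (adjusted p = 0.0543), and Hoxa6 had 1 and 6 UMIs, a null to WT ratio of 4.40 (0.534 to 202). In all, 7 Hox genes had every null library above every WT library and 1 had every one below, where 14.2 and 26.6% of all genes did.

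At E8.5 the values leaned the other way, with a median of -0.17 against 0.00 for all genes. Hoxa7 was at 29.4 and 40.9 CPM in WT and 26.4 and 28 CPM in null libraries (log2 fold change -0.39, SE 0.24, interval -0.91 to 0.12). Hoxc9, which acts in the chest region, was at 28.2 and 23.8 CPM against 22.7 and 14.8 CPM (-0.48, SE 0.35), Hoxa9 at 23.4 and 23.1 CPM against 19.6 and 18.4 CPM (-0.31, SE 0.27), and Hoxc6 differed by -0.29 (SE 0.27). These 4 and Hoxb13, with 2 UMIs in WT and 0 in null libraries, had the smallest unadjusted p, and every adjusted p was 1. Single libraries moved these values: Hoxc6 was -0.02 without null library B and -0.68 without null library A, Hoxc9 was -0.20 and -0.86 in the same order, and Hoxa7 was -0.15 without WT library B and -0.60 without WT library A. In Hoxa7, Hoxa9 and Hoxc9 every null value was under every WT value, as in 14 of 39 Hox genes, or 35.9%, with 12.1% of all genes in that order. A few UMIs set the order in some of the 14. Hoxb13 and Hoxc12 had 2 and 3 UMIs in WT and 0 in null libraries. Hoxc13 was at 0.0482 and 0.0401 CPM against 0.0353 and 0 CPM. The 1 gene in the opposite order was Hoxc11, where 19.2% of all genes were. Cells of the 5 types whose summed WT Hox level was over 1000 CPM at E8.5 made up 8.45 and 9.20% of WT libraries and 7.33 and 8.03% of null libraries; their part in the difference was not tested.

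At E9.5 the median was -0.09, against 0.00 for all genes. Hoxc8, a gene of the chest region and of the nerves of the forelimb, was at 57.9, 44, 46 and 48.8 CPM in WT and at 35.7, 38.5, 32.4 and 41.6 CPM in null libraries, without overlap (log2 fold change -0.41, SE 0.21, interval -0.86 to 0.04, edgeR adjusted p = 0.628). Hoxb7 was at 25.7, 19.7, 18.9 and 18.4 CPM against 17, 16.9, 14.7 and 14.6 CPM, again without overlap (-0.39, SE 0.23, adjusted p = 0.737). These 2 were the only Hox genes whose groups did not overlap, with 3.58% of all genes lower and 3.34% higher in that way. Hoxa13, a gene of the outermost limb, was at 1.54, 1.14, 0.923 and 2.87 CPM in WT and at 1.26, 0.767, 1.23 and 1.25 CPM in null libraries (-0.55, SE 0.30, adjusted p = 0.686), and the difference was -0.10 without library D of the WT group. Hoxa7 (-0.19, adjusted p = 0.884) and Hoxa6 (-0.22, adjusted p = 0.912) complete the 5 genes of smallest p, and without library A of the WT group they were at -0.05 and -0.02.

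**Figure D3:**
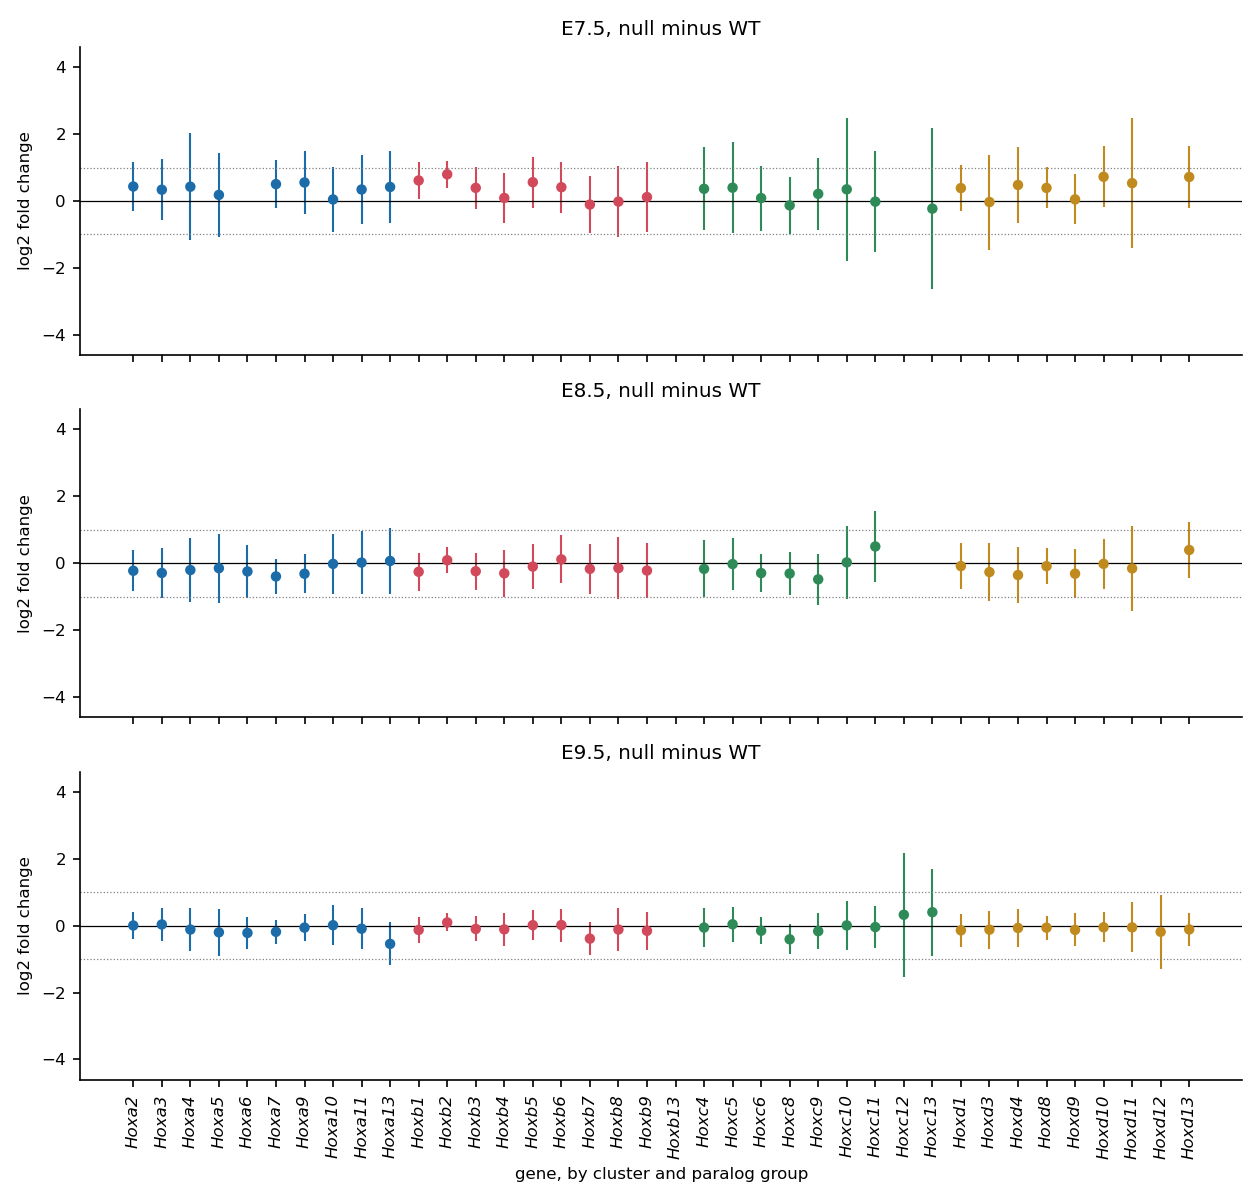
log2 fold change of null over WT for Hox genes over whole libraries, with 1 panel for each stage, genes in order of cluster and paralog group, 95% intervals, dotted lines at 1 and -1 and colours for the clusters. Genes with under 20 UMIs over both groups are not drawn; none of the points is called, and the intervals narrow from E7.5 to E9.5.

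The Hox genes were far from even over the cell types of an embryo. Types are the authors' labels, transferred from the nearest cells of a reference atlas by expression that may include Hox genes, so levels by type are a description. In WT cells of E7.5 the summed Hox level was highest in Intermediate mesoderm at 715 CPM, followed by Caudal epiblast, the growth zone that feeds the trunk, at 536 CPM and Lateral plate mesoderm at 461 CPM. Hoxb1 led the first of these at 315 ± 75.8 CPM (SD, n = 2) and Caudal epiblast at 188 ± 47.1 CPM. Lateral plate mesoderm was led by Hoxd9, at 100 and 28.3 CPM, with mean number 5.72 over its Hox UMIs where Paraxial mesoderm had 1.74. In Ectoderm and ExE ectoderm the sums were 36.8 and 14.3 CPM. Of the 4 markers of Intermediate mesoderm, Lhx1 was at 65.4 CPM and Osr1 at 6.63 CPM under that label, ranks 3 and 2 of 11 types, whereas the kidney genes Pax2 and Wt1 were at 0.218 and 0 CPM.

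At E8.5 the highest sums were in the growing tail end: Presomitic mesoderm, the tissue that forms somites, at 2752 CPM and NMPs, the neuromesodermal progenitors of spinal cord and trunk mesoderm, at 2659 CPM. Hoxc8 led the first at 322 ± 17.8 CPM and Hoxa7 the second at 358 ± 58.0 CPM (SD, n = 2 each). Limb ectoderm was at 2412 CPM (Hoxa7 527 ± 125 CPM), Lateral plate mesoderm at 2012 CPM (Hoxc8 212 ± 28.8 CPM) and Spinal cord progenitors at 1714 CPM (Hoxb9 325 ± 26.2 CPM). Ventral hindbrain progenitors, by contrast, held Hoxb2 at 111 ± 0.691 CPM, Hoxa2, which sets the identity of the second arch, at 48.1 ± 9.27 CPM and Hoxb1 at 42.0 ± 3.61 CPM, with a mean number of 2.84. The Allantois, the forerunner of the cord that joins embryo and placenta, held 24 genes at 10 CPM or more, reaching group 13, with a mean number of 8.14 and Hoxa9 in front at 103 ± 6.13 CPM. YS mesothelium, of the yolk sac, was dominated by 1 gene, Hoxc8, at 294 ± 28.5 CPM of a sum of 637 CPM. Optic vesicle and Erythroid cells were at 28.7 and 25.6 CPM.

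At E9.5 Somitic mesoderm reached 3504 CPM and Presomitic mesoderm 3435 CPM, and Hoxd11 now led both, at 549 ± 190 and 554 ± 33.3 CPM, with Hoxc10, a gene of the loin region, at 530 ± 4.17 and 468 ± 89.9 CPM (SD, n = 2 each). Spinal cord progenitors were at 2362 CPM with Hoxc10 at 266 ± 43.7 CPM (n = 3), and Dorsal spinal cord progenitors at 1578 CPM with Hoxb9 at 215 ± 73.4 CPM (n = 4). Limb mesoderm was at 1385 CPM, led by Hoxa9 at 167 ± 31.4 CPM and Hoxd9 at 119 ± 13.5 CPM (n = 4), the 2 paralogs that act together at the base of the limb. Dorsal hindbrain progenitors kept the low numbers, with Hoxb2 at 121 ± 17.4 CPM and Hoxa2 at 66.6 ± 9.5 CPM and a mean number of 3.65, against 7.90 in Presomitic mesoderm. Hoxc8 remained the leading gene of YS mesothelium at 403 ± 50.9 CPM. Epicardium, the outer layer of the heart, was led by Hoxb4 at 134 ± 23.4 CPM. The lowest sums were in Erythroid cells at 62.2 CPM, Frontonasal mesenchyme at 65.2 CPM and EMP at 67.2 CPM. Marker genes fixed for each tissue put Pax1 and Pax9 highest in Sclerotome at E9.5, and Tbx6 and Msgn1, the genes of unsegmented mesoderm, highest in the label Somitic mesoderm. The same lists also hold Nkx3-2 for sclerotome and Dll1 and Hes7 for presomitic mesoderm, whose ranks are not given here. Under the label Dorsal midbrain neurons the 4 midbrain genes En1, En2, Otx2 and Pax5 were at 19.8, 15.8, 47.1 and 12.2 CPM, against 140, 163, 102 and 105 CPM in Midbrain/Hindbrain boundary, and ranked 8, 4, 7 and 3 of 40 types. Of the 6 spinal cord genes Nkx6-1 and Olig2 ranked 1 there, Dbx1 3, Pax6 9 and Sox2 and Irx3 12, beside a summed Hox level of 1316 CPM led by Hoxb4 at 175 ± 58.8 CPM.

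**Figure D4:**
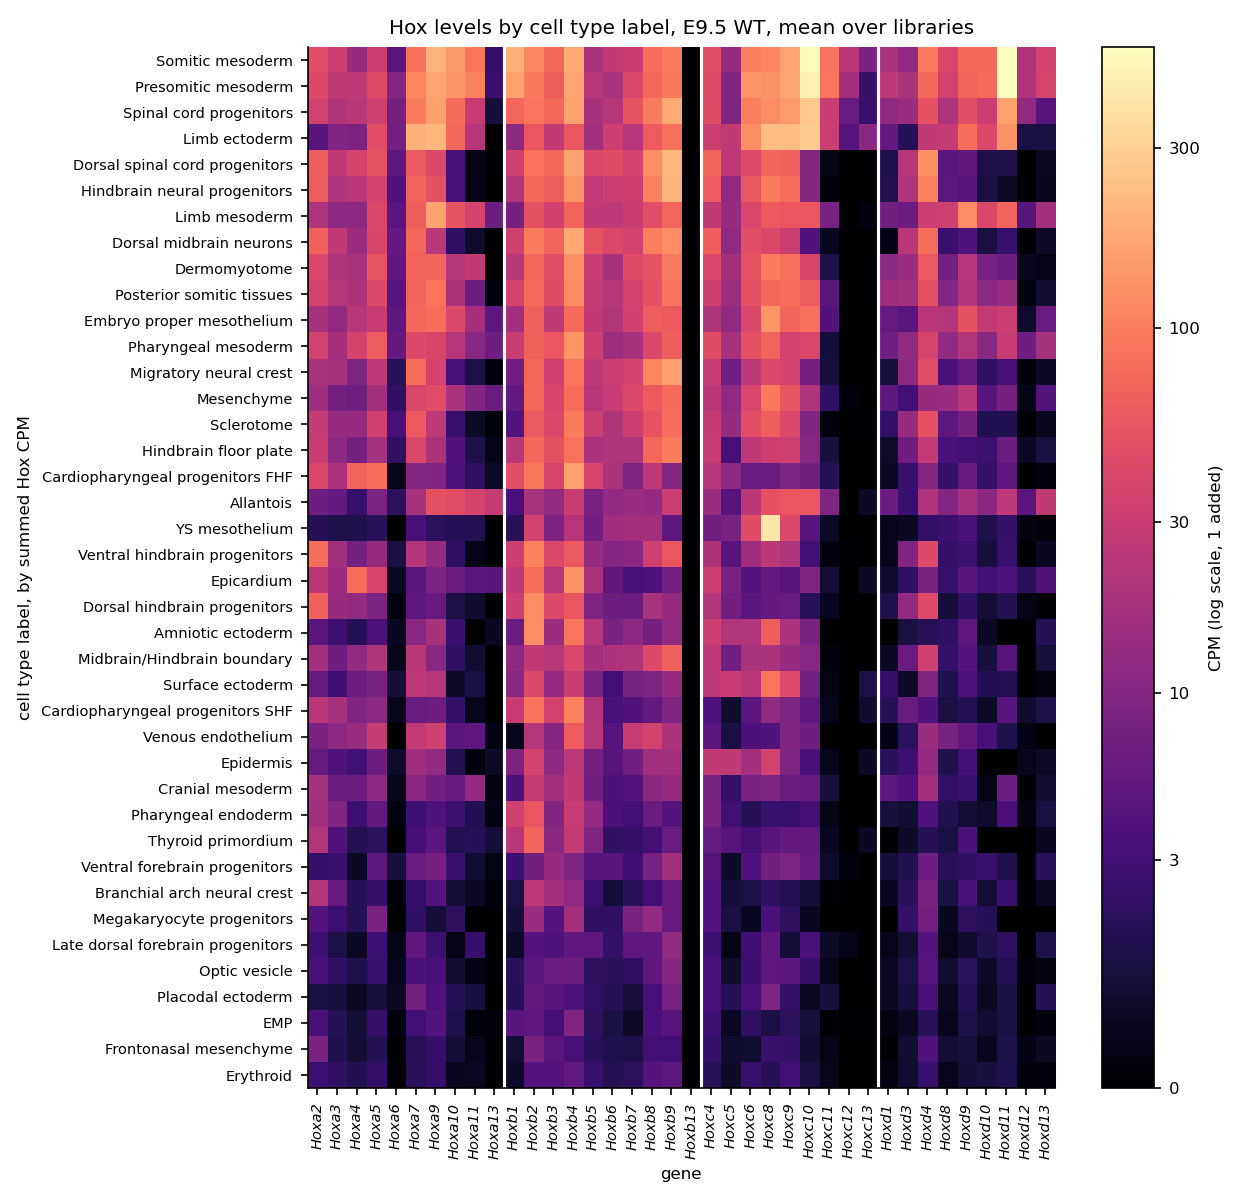
Mean level of Hox genes in each cell type of the WT libraries at E9.5, as log10(CPM + 1) in colour, with types in rows from the highest to the lowest summed Hox level. Somitic and Presomitic mesoderm stand at the top, with Hoxd11 brightest, and Dorsal hindbrain progenitors are bright in Hoxb2 and Hoxa2.

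For shares of cells with a Hox UMI, each cell was thinned to 10000 UMIs. Free RNA can leave UMIs in cells that do not express a gene, and in 2 types with little Hox expression the shares were as follows: at E8.5, 17.4% ± 1.60 of Optic vesicle cells and 14.5% ± 3.19 of Erythroid cells (SD, n = 2) still had one, 35.2 and 33.5% before thinning, and at E9.5 these shares were 41.4% ± 13.3 and 41.9% ± 11.7 (n = 4), 76.9 and 71.4% before. The median UMIs per cell behind them were 24584 and 34009 at the earlier stage, 34879 and 24052 at the later one. Shares near those levels are read as background, though free RNA itself was not measured. In Presomitic mesoderm (22010 UMIs per cell at the median at E8.5, 30883 at E9.5) every cell had a Hox UMI at both stages, with 13.1 ± 0.837 different Hox genes per cell at E8.5 and 16.7 ± 0.514 at E9.5 (n = 2 each). Cells with a gene of groups 10 to 13 made up 36.1% ± 16.6 and then 100% of it. In Limb mesoderm that share was 0.725% ± 1.02 at E8.5 (n = 2) and 58.5% ± 6.06 at E9.5 (n = 4), and in Spinal cord progenitors 3.88% ± 3.22 (n = 2) and 75.9% ± 13.7 (n = 3). In Optic vesicle and Erythroid cells of E9.5 it was 6.42 and 6.16%. YS mesothelium, with 99.8% of cells positive at E9.5, held only 3.10 ± 0.117 genes per cell.

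Within cell types, WT cells of E9.5 had more Hox genes called higher than lower against WT cells of E8.5. Over 30 types in which a Hox gene could be tested, 204 of 633 pairs of gene and type were called, 175 higher and 29 lower, with 3.19% of all pairs called, 2.17% higher and 1.02% lower. The higher calls fell on every paralog group and the lower ones were concentrated in the first: of 51 pairs of group 1, 1 was higher and 19 lower; of 92 pairs of group 4, 21 were higher; of 89 of group 9, 32 were higher and 2 lower; and of 41 of group 10, 24 were higher. Calls came from 25 types, 23 of them with a higher and 16 with a lower call. Without library B of the E8.5 WT group 125 pairs were called.

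The limb bud gained its outer genes. In Limb mesoderm 15 of 36 Hox genes tested rose and 3 fell, with 2.72% of all genes tested there higher and 1.27% lower. Hoxd9 was at 8.86 and 11.1 CPM at E8.5 and at 120, 137, 116 and 104 CPM at E9.5 (log2 fold change 3.45, SE 0.18, edgeR adjusted p = 6.63e-09), and Hoxa9 was at 15.7 CPM in both E8.5 libraries and at 197, 176, 173 and 123 CPM at E9.5. Neither gene overlapped between stages. Hoxd11 and Hoxd13 went from 1 UMI each to 2096 and 528, and Hoxd10, Hoxa11 and Hoxa13 from 0 to 1210, 1099 and 213. Hoxb1 fell from 43.1 and 58.2 CPM to 4.28, 10.5, 7.81 and 8.91 CPM (-2.82, SE 0.27, adjusted p = 0.000147), and Hoxd1 fell by 1.48 on the log2 scale (adjusted p = 0.000637).

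In Presomitic mesoderm of the tail, genes of groups 10 to 13 rose and genes of lower-numbered groups fell. Hoxd11 was at 36.2 and 20.6 CPM at E8.5 and at 577 and 530 CPM at E9.5 (log2 fold change 4.00, SE 0.18, edgeR adjusted p = 4.5e-10), and Hoxa11 (3.82), Hoxc11 (5.21), Hoxd13 (3.18), Hoxd10 (2.74) and Hoxa10 (1.93) rose by the log2 fold changes given. Hoxc8 went from 310 and 335 CPM to 138 and 128 CPM (-1.46, SE 0.13, adjusted p = 4.74e-06), and Hoxa7, Hoxb6, Hoxb8, Hoxb9 and Hoxd1 fell by 1.09 to 1.40. Of 32 tested 6 rose and 6 fell, the largest number of falling Hox genes in any type, with 1.61% of all genes there higher and 0.69% lower. In Spinal cord progenitors 5 of 34 rose and none fell by edgeR, with 1.66% of all genes higher. Hoxc10, which acts in the motor neurons of the lumbar cord, had 9 UMIs over the E8.5 libraries and 802 at E9.5 (2.06 ± 2.91 CPM, n = 2, and 266 ± 43.7 CPM, n = 3), and Hoxd10 had 0 and 90 UMIs. In Dorsal spinal cord progenitors Hoxb8 was at 38 and 25.4 CPM and then at 146, 116, 130 and 117 CPM (log2 fold change 1.83, SE 0.14, adjusted p = 2.53e-08).

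The somite derivatives and the crest had more higher than lower calls. In Sclerotome, which forms vertebrae and ribs, 14 of 29 Hox genes rose, with 1.30% of all genes there higher. Hoxb4 was at 40 and 27.8 CPM at E8.5 and at 105, 96.7, 92.6 and 87.2 CPM at E9.5 (log2 fold change 1.27, SE 0.14, edgeR adjusted p = 1.09e-05), and Hoxb7 was at 0.91 and 1.92 CPM and then at 30.4, 32.3, 39.4 and 30.2 CPM. Every E9.5 library lay above every E8.5 library for both genes. Migratory neural crest had 13 higher calls of 25 (4.33% of all genes), among them Hoxc6 (2.70, SE 0.35) and Hoxc8 (2.82, SE 0.44), and 1 lower, Hoxb1 (-1.28, SE 0.27). Dermomyotome had 9 higher calls of 31 and Cranial mesoderm 10 of 20, and neither had a lower one by edgeR, with 1.16 and 3.27% of all genes higher. In Ventral hindbrain progenitors 10 of 25 rose (3.31% of all genes) and 1 fell, with Hoxb3 (1.15) and Hoxa5 (1.70) among those that rose. The Allantois had no call among 28 Hox genes tested, although 10 had an unadjusted p under 0.05 by edgeR, as 22.6% of all pairs did, and levels leaned lower at E9.5 for 19. Erythroid cells had 8 higher calls of 11 (4.44% of all genes) at levels of 2.36 to 5.47 CPM, and Optic vesicle 3 of 18 (3.45%). These are the 2 types from which the background shares were read, so those shares cannot say whether these calls are background. The part of free RNA in them was not tested.

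Between genotypes, only 2 pairs of a Hox gene and a cell type were called over the 3 stages, both at E7.5 in the cells labelled Paraxial mesoderm, the sheet that will form somites and head mesoderm, and Hoxb1 was in 1 of them. At that stage 85 pairs in 7 types were tested and 11 had an unadjusted p under 0.05, and of all pairs 0.186% were called, 0.0799% as higher, and 4.06% were under that p. Hoxb1 was at 86.3 and 75.7 CPM in WT and at 165 and 180 CPM in null libraries (log2 fold change 1.12, SE 0.14, interval 0.83 to 1.42, edgeR adjusted p = 0.000997), from 339 and 1485 UMIs. The genotypes did not overlap. Hoxb1 was also called by DESeq2, and with 1 library left out it was at 1.04 to 1.22. In such fits 1 group is a single library that is assumed to vary like the other group. The study pooled large and small E7.5 embryos apart, so such a fit may set unlike size classes against each other. The cell table does not say which library held which class, and the part of embryo size in these values was not tested. DESeq2 called 1 pair at this stage. Of the Hox genes tested there but not called, Hoxa2 was at 6.06 and 5.72 CPM against 12.8 and 12.5 CPM (1.13, adjusted p = 0.383), Hoxb2 at 40.9 and 36.7 CPM against 50.3 and 89 CPM (0.77, adjusted p = 0.778), and Hoxb3 overlapped. The second of the 2 pairs was not called without WT library B, without null library A or by DESeq2. Without WT library A, 8 pairs were called at E7.5, all higher in null libraries. Without WT library B 5 were called, of which 4 were lower: Hoxb8 in Intermediate mesoderm (-1.78), Hoxa10 (-1.03) and Hoxc8 (-1.35) in Lateral plate mesoderm and Hoxd9 in Mesenchyme (-1.45). Without null library A 4 were called: Hoxb1 (1.22) and Hoxb2 (1.26, adjusted p = 3.67e-05) in Paraxial mesoderm and Hoxb2 in Blood progenitors (1.76) as higher, and Hoxb1 in Ectoderm as lower (adjusted p = 0.00148).

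The Paraxial mesoderm label held 31 and 96 WT cells (4.29 and 5.38% of their libraries) and 177 and 24 null cells (8.15 and 6.67%). Of the other genes read there, Cdx4 and Myl7 were called. Cdx4, a direct activator of trunk Hox genes, was at 1.51 and 4.04 CPM in WT and 16.6 and 21.3 CPM in null libraries (log2 fold change 2.48, SE 0.38, edgeR adjusted p = 0.00709), and Cdx2 at 24.2 and 20.9 CPM against 43 and 26.5 CPM (0.78, adjusted p = 0.452). The heart muscle gene Myl7 was at 169 and 222 CPM in WT and 86 and 84.5 CPM in null libraries (-1.19, SE 0.15, adjusted p = 0.000997). The 4 cardiomyocyte markers summed to 185 and 235 CPM in WT and 99.6 and 97 CPM in null libraries, with Nkx2-5 at 0 in WT library A. Myl7 is 1 of these 4 and made up most of each sum. The 5 forebrain markers summed to 107 and 78.8 CPM against 58.6 and 61.8 CPM. Otx2 is in the midbrain list too and made up most of both sums. It was at 94.6 and 69.3 CPM in WT and 52.1 and 51.5 CPM in null libraries. Of 22 marker lists 5 had lower sums in both null libraries and 3 higher ones, and 14 overlapped, the somite and primitive streak lists among them. No such share over all genes of this type was computed. Over whole libraries of E7.5, 26.6% of all genes were lower in this way and 14.2% higher. Those shares are of single genes over all labels, so they give no background for summed lists within 1 label. The other lower sums were those of midbrain (69.7 to 95.4 CPM in WT, 52.2 to 52.7 CPM in null libraries), visceral endoderm (10.6 to 28.9 CPM, 0 to 2.26 CPM, with Afp at 0 in both null libraries) and neural crest (4.54 to 4.71 CPM, 3.68 to 4.39 CPM, with Sox10 and Tfap2b at 0 in every library). Higher were lateral plate (178 to 205 CPM, 222 to 288 CPM), sclerotome (0 to 0.337 CPM, 0.735 to 0.798 CPM) and hindbrain (83.1 to 92.4 CPM, 179 to 194 CPM). Pax1 and Nkx3-2 were at 0 in every library, so the sclerotome sum is Pax9 alone. The hindbrain list holds Hoxb1 and Hoxa2, and Hoxb1 made up most of each sum, so this list is not separate from the Hox values. The part of the other genes and lists in the Hox difference was not tested. Tcf15 (0.03), Meox1 (0.56) and Mesp1 (-0.02), genes of somites and early mesoderm, had adjusted p-values of 0.999.

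**Figure D5:**
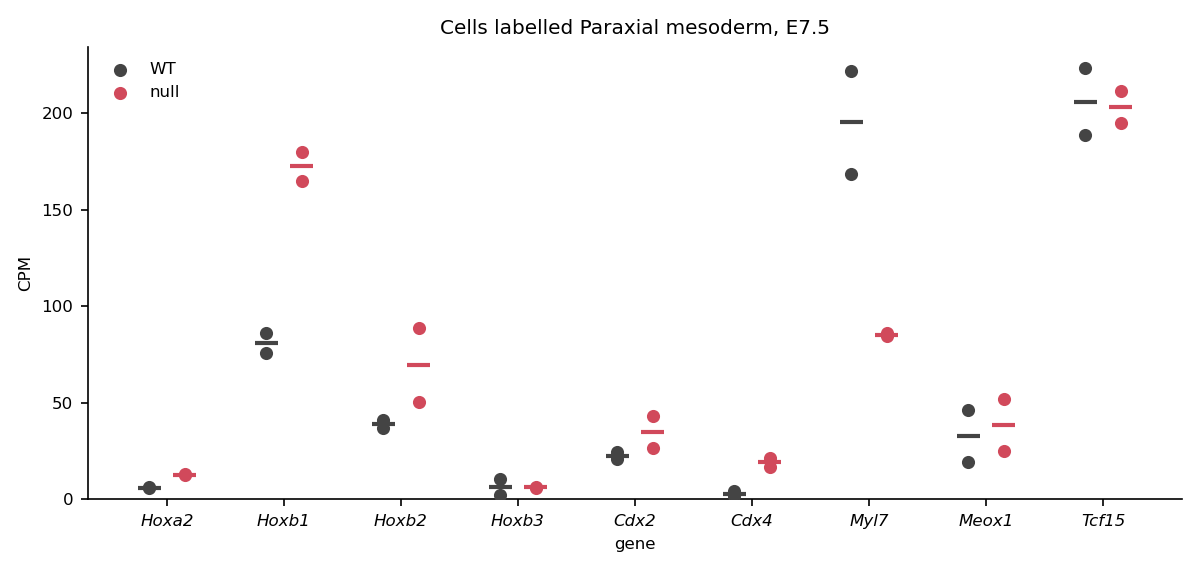
CPM of 4 Hox genes and of 5 other genes in cells labelled Paraxial mesoderm at E7.5, with a point for each of 2 WT and 2 null libraries and a bar at the mean. Hoxb1 lies at 75.7 to 86.3 CPM in WT and 165 to 180 CPM in null libraries, and Myl7 runs the other way.

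At E8.5 no pair of 280 in 19 types was called, with 20 at an unadjusted p under 0.05, where 0.0609% of all pairs were called and 4.32% were under that p. DESeq2 called none either. Of those 20, 8 were in Erythroid cells, out of 12 tested there (66.7%, with 8.04% of all genes of that type), at WT levels of at most 2.43 CPM. All 12 log2 fold changes in these cells were below 0, with a median of -1.85. The genes were read in the same libraries, so they are not independent observations. Erythroid cells are also among the types from which the background shares were read, and the part of free RNA in these values was not tested. Hoxb4 there, at -2.88 with an adjusted p of 0.192, was called at -2.85 in one fit over all stages, and Hoxb4 and Hoxa7 were called without the low-count filter. The smallest unadjusted p, with each type fitted and adjusted on its own, belonged to Hoxb2 in Ventral hindbrain progenitors, at 111 and 112 CPM in WT and 84 and 65.7 CPM in null libraries (log2 fold change -0.51, SE 0.14, adjusted p = 0.516). Without null library A 10 pairs were called and without null library B 6, where the remaining null library is assumed to vary like the WT libraries. Hoxb9 in Limb mesoderm was among both, at -3.06 in the former and 1.25 in the latter. Types whose Hox median lay above 0 numbered 11 and those below 8.

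At E9.5 no pair of 700 in 36 types was called by edgeR, with 70 at an unadjusted p under 0.05, where 0.12% of all pairs were called and 6.26% were under that p. DESeq2 called 1, Hoxb3 in Branchial arch neural crest (-1.01, adjusted p = 0.0268), which edgeR gave as -0.99 with an adjusted p of 0.156. The Hox median was below 0 in 27 types and above 0 in 9. As at E8.5, the types are parts of the same libraries, so they are not independent observations. The labels were made from expression that may include Hox genes, so tests within a label may miss Hox differences, at every stage. The smallest adjusted p by edgeR, 0.0555, was that of Hoxb4 in Late dorsal forebrain progenitors, at 2.31, 12.7, 3.41 and 2.79 CPM in WT and 26.4 and 16.1 CPM in 2 null libraries, from 17 and 63 UMIs. Only 4 Hox genes could be tested in that type. Hox genes are known to be silent in the forebrain, and the part of free RNA or of mislabelled cells in these values was not tested. Next came Hoxd10 in Embryo proper mesothelium, at 37.8, 24.2, 23.9 and 26.8 CPM in WT and 17.1, 7.21, 15.4 and 17.3 CPM in null libraries (-1.04, SE 0.24, adjusted p = 0.0602), without overlap. Hoxb7 in Sclerotome was at 30.4, 32.3, 39.4 and 30.2 CPM in WT and 24.2, 18.4, 27.3 and 25.4 CPM in null libraries (-0.48, SE 0.13, adjusted p = 0.128). It gave -0.69 in Mesenchyme (SE 0.17, adjusted p = 0.171), and in these 2 types the groups did not overlap, whereas they did in Dermomyotome (-0.63, SE 0.17, adjusted p = 0.211). Hoxa13 in Limb mesoderm was at 5.85, 9.2, 4.69 and 7.27 CPM in WT and 4.04, 2.24, 3.11 and 4.5 CPM in null libraries (-0.94, SE 0.24, adjusted p = 0.185). In Limb ectoderm 9 of 22 Hox genes had an unadjusted p under 0.05, as did 5.38% of all genes there, and 18 of the 22 log2 fold changes lay below 0.

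Leading genes of 6 types at E9.5 were set side by side. In Presomitic mesoderm Hoxd11 was at 577 and 530 CPM in WT and 558 and 555 CPM in null libraries, and 25 of the 36 Hox genes tested there had an interval within a factor of 2. In Spinal cord progenitors Hoxc10 was at 309, 269 and 221 CPM in WT and 301, 347 and 219 CPM in null libraries. In Limb mesoderm Hoxa9 was at 197, 176, 173 and 123 CPM in WT and 206, 193, 125 and 117 CPM in null libraries. These values overlapped, as did Hoxb9 in Dorsal spinal cord progenitors, at 158 to 322 CPM and 157 to 256 CPM, and Hoxb4 in Epicardium, at 99.4 to 149 CPM and 103 to 125 CPM. Hoxc8 in YS mesothelium did not overlap, at 438, 427 and 345 CPM in WT and 341, 199 and 284 CPM in null libraries (-0.56, SE 0.18, edgeR adjusted p = 0.439). Without WT library B, and without null library A, 4 pairs were called at E9.5, with 3 without WT library A and 2 without WT library D.

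Genes known to work with or upstream of the Hox genes were read from 6 lists. Over whole libraries no member was called between null and WT at any stage: 9 cofactors of the Pbx, Meis and Pknox families, 3 Cdx genes, 9 of retinoic acid supply and reception, 13 of segments and axis, 14 of chromatin (Polycomb and its counterparts) and 8 of 9 non-coding rows of the clusters that could be tested. At an unadjusted p under 0.05 by edgeR there were 3, 0 and 0 cofactors, 1, 0 and 1 retinoic acid genes, 1, 0 and 0 segment and axis genes, 1, 0 and 0 non-coding rows and 6, 3 and 5 chromatin genes from the first stage to the last, and no Cdx gene, where 18.2, 5.27 and 9.09% of all genes were under that p. Of the chromatin genes 1, 1 and 2 had an adjusted p under 0.05, with differences under the fold threshold. Within types edgeR called 3 of 2386 pairs of a list member and a type over the 3 stages, 1 at E7.5 and 2 at E9.5, where 0.186 and 0.12% of all pairs were called. Among them were Cdx4 as above and Fgf8 in Posterior somitic tissues of E9.5, at 20.5 CPM in WT and 9.65 CPM in null libraries on average (-1.13, SE 0.25, adjusted p = 0.0346). Between E7.5 and E8.5 in WT, the cofactors Meis1 and Meis2 rose by 1.62 and 1.08 on the log2 scale and no cofactor fell. Of the Cdx genes, Cdx1 and Cdx2 fell by 2.48 and 1.94 in the first step, and Cdx1, Cdx2 and Cdx4 by 2.10, 2.12 and 2.62 in the second, and within types of WT 11 of 21 pairs fell and none rose by edgeR, where 1.02% of all pairs fell and 2.17% rose. Of the 9 retinoic acid genes 5 rose and 1 fell in the first step, where 9.17% of all genes rose and 8.55% fell: the binding proteins Crabp1 and Crabp2 rose by 2.87 and 3.16, and Cyp26a1, which breaks the signal down, fell by 1.54. T, the gene of the primitive streak, fell by 2.96, and Gdf11, which sets the start of the tail, rose by 1.21 and then by 1.01. Nr6a1 and Lin28a, whose products act on the timing of the trunk, fell by 1.54 and 1.11 in the second step. No chromatin gene was called in either step by edgeR: of the 14, 11 and 8 had an unadjusted p under 0.05, where 52.4 and 49.1% of all genes did. Of the non-coding rows, Hoxb5os rose by 6.58 and Hoxaas3 by 3.17 in the first step, and Hotair, which lies in the Hoxc cluster, had 0 UMIs at E7.5 and E8.5 and 94 in WT and 89 in null libraries at E9.5.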

How the data were processed

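Per the study's methods, the authors aligned reads with Cell Ranger to mm10 with the tdTomato sequence added, kept cells by limits on UMIs, genes, mitochondrial and ribosomal share, called doublets with scds, and labelled cells from their nearest neighbours in a mouse gastrulation atlas. The deposited matrix holds UMI counts per gene and cell, and the deposited cell table gives the mitochondrial percent per cell. Cells called doublets (3395) and WT-gate cells with a tdTomato UMI (596) were left out. A library's stage and tdTomato gate in the cell table gave its group, and 0 columns of per-sample values were unmatched. Counts were summed per library, and per library and cell type where more than 15 cells were present in at least 2 libraries per group. The sums were tested with edgeR 4.0.16 (filterByExpr, TMM, robust quasi-likelihood; R 4.3.3), with DESeq2 1.42.0 as an alternative, after a check on simulated data. Predicted, mitochondrial, ribosomal, haemoglobin and Y-linked genes were not tested, nor were Xist, Tsix and the tdTomato row. Other X-linked genes were tested. Whole libraries were fitted as 6 groups together, cell types one at a time. Python 3.11.15, numpy 2.4.6 and pandas 2.3.3 were used for levels and shares. Intervals on ratios of few UMIs cover counting error only. Named were all Hox genes called between genotypes, per stage the 5 of smallest unadjusted p over whole libraries, the leading Hox genes of the types described, the ends of the clusters, and called members of the regulator lists, except some genes that are counted but not reported individually here or drawn; others named were chosen after their values were seen. The members and lists were chosen with earlier results of these data known. Alternatives were the low-count filter, normalization, cell minimum, fold threshold, stage-wise fits, DESeq2 and leaving out each library.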

Additional observations from a re-analysis of the deposited data

Results flagged for a closer look

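Of 80 groups of 4 libraries checked at E9.5, 7 had 1 library farther from the other 3 than Dixon's 95% critical value allows, where chance flags about 1 in 20. In WT, library D stood low for Hoxa2, at 19.9 CPM with the others at 32.2 to 34.3 CPM, and for Hoxa4, at 10.1 CPM with the others at 14.3 to 15.1 CPM. WT library A stood high for Hoxa6, at 3.48 CPM against 2.09 to 2.30 CPM, and for Hoxc12, at 1.75 CPM against 0.0804 to 0.21 CPM. In null libraries, B stood low for Hoxa13, at 0.767 CPM against 1.23 to 1.26 CPM. Hoxb13 was at 0.0134 CPM in WT library B and at 0.00721 CPM in null library A, with 0 in the other libraries of each group; each is a single UMI, and 3 values of 0 beside any other value always pass this criterion.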

How the results depend on the processing

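No paired analysis was possible because the cell table does not say which WT and null libraries came from the same embryo pool. The study's own tests fitted embryo pool beside genotype. The tests here leave it out, so differences between pools stay in the spread and may hide differences shared by pairs. The count of Hox genes called between genotypes over whole libraries was 1 at E7.5 with no fold threshold (Hoxb2). Within cell types, DESeq2 gave 1 call at E7.5 and 1 at E9.5. Without a low-count filter there were 3 calls at E8.5, 6 at E9.5 and 311 between stages in WT. One fit over all stages gave 1 call at E8.5. With more than 50 cells per library there was 1 call at E9.5 (Hoxb7 in Mesenchyme) and 106 between stages in WT, and at E7.5 that setting could not be fitted. Leaving out 1 library at a time gave 0 to 1 calls at E7.5, 0 at E8.5 and 0 at E9.5 over whole libraries, 9 to 19 for E9.5 against E8.5 in WT and 9 to 22 in null, 20 to 25 and 16 to 21 for E8.5 against E7.5, 2 to 8 within types at E7.5, 0 to 10 at E8.5, 0 to 4 at E9.5, and 125 to 234 between stages within types of WT. None of the log2 fold changes between genotypes recomputed for single Hox genes (those called and, per stage, the 5 of smallest p over whole libraries) changed sign, but within types calls of opposite direction arose when single libraries were left out: at E8.5 Hoxb9 in Limb mesoderm was called at -3.06 without null library A and at 1.25 without null library B. Where 1 library was left at E7.5 or E8.5 it was assumed to vary like the other groups. Leaving out cells with barcodes seen in more than 1 library, or the extraembryonic types at E7.5, was chosen after seeing the data; the latter gave 0 calls between genotypes and 22 in WT and 20 in null between E7.5 and E8.5. With 2 libraries a group at E7.5 and E8.5, a null library of 360 cells, and as few as 24 cells of a type, differences smaller than the intervals given were not detectable.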
